A study of Mus musculus with 50 samples.

Results

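The zinc finger protein genes described here are the rows of the expression table whose mouse symbol is Zfp followed by a digit. There were 304 of them among 11879 gene rows. The table held 50 single mouse cells of 1 kind, the induced hemogenic endothelial progenitors called iHECs. They came from embryonic stem cells of the C57BL/6 background (iRunx1-ESC), in which a Runx1 expression cassette placed in the Rosa26 locus is switched on by doxycycline, and the study sorted them as CD31+CD41lowCD45-c-kit+CD201high cells. The cassette is carried by stem cells selected as clones with hygromycin, and all of the cells come from such stem cells by differentiation in culture. No animal, culture or control group is named, so the 50 cells count as 1 sample without a replicate. No significance test was therefore made, and all shares, ranges and correlations below describe these cells only.

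The endothelial identity of the sort was visible in the table. Pecam1 (CD31), Cdh5 and Esam were above a TPM of 1 in 50 of 50 cells, while Ptprc (CD45) was listed at 0 in every cell. By counting error alone 0 of 50 allows up to 6% of cells with a value above 0, and at unknown depth it sets no limit on cells that express the gene. Of the other genes listed for blood cells, Laptm5 was above TPM 1 in 48 cells, Coro1a in 21 and Vav1 in 11. Pdgfra, a mesenchymal gene, was above it in 2 cells. Between 2400 and 8615 genes per cell were above TPM 1. TPM, a length-scaled abundance on a common total, does not tell how deeply a cell was sequenced.

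Zinc finger proteins hold small folds in which cysteine and histidine side chains grip a zinc ion. In the large C2H2 class the fingers stand in arrays and read DNA, and many mouse members also carry a KRAB domain, which recruits the corepressor Trim28 and silences retroelements and imprinted loci. The CCCH class, with Zfp36 and its relatives, binds AU-rich elements of messenger RNAs and brings the CCR4-NOT deadenylase to them. The shared name covers a fold and not a pathway.

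Expression of a gene in a cell was called where its TPM was higher than 1, a level also used by the study. By this level a Zfp row was expressed in a median of 28% of the 50 cells, with quartiles of 14% and 50%. The median over all rows was 52% of cells. A total of 7 Zfp rows (2.303%) were expressed in at least 90% of cells, against 19% of all rows. In contrast, 52 Zfp rows (17.1%) were expressed in at most 10% of cells, against 16.6% of all rows. At this level, rows read in nearly all cells were thus scarcer among the Zfp genes than in the table. Rows read in few cells were about as frequent, and the other 245 Zfp rows lay between. Both Zfp counts moved at other levels, as given at the end, and counts over all rows were made at TPM 1 only. Where the rows of the whole table were most numerous in the top step of the scale, above 90% of cells (17.2% of rows), the Zfp rows were most numerous from above 10% to 20% of cells (21.1% of rows, against 8.31%).

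Most values of these genes were either 0 or well above 1. Of the 15200 pairs of a Zfp row and a cell, 59.4% were listed at 0, 6.74% lay above 0 and up to 1, and 33.8% lay above 1. Over all rows 42.5% of pairs were at 0 and 51.9% above 1. The median TPM of the pairs above 1 was 20.6, against 47.3 over all rows. A median above TPM 1 was found in 79 Zfp rows (25.99%), against 6243 of all 11879 rows (52.6%), and a median above 100 in 5 of the 304, against 1573 of all rows. There were 6 rows above TPM 1 in 0 cells (Zfp352, Zfp459, Zfp488, Zfp534, Zfp619 and Zfp709), of which 4 were listed at 0 in all cells. These 6 were 1.97% of the Zfp rows, against 5.14% of all rows, so that rows above TPM 1 in no cell took a smaller share of the Zfp rows than of the table.

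**Figure D1:**
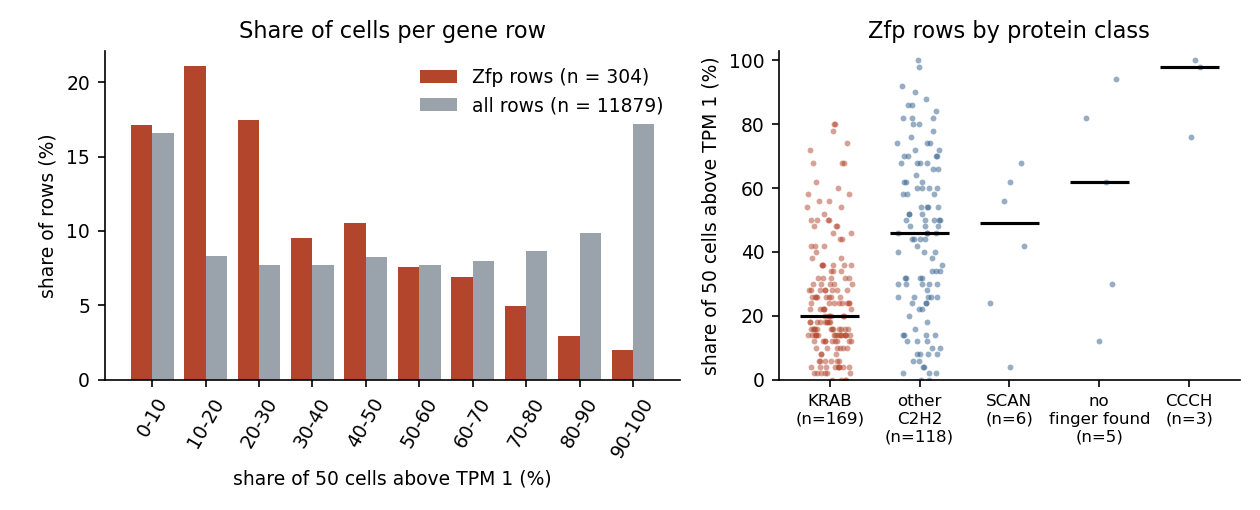
Left, the percent of rows (vertical axis) whose share of the 50 cells above TPM 1 falls in each step of 10 points (horizontal axis, each step from above its lower bound, 0 included in the first), for 304 Zfp rows and all 11879 rows. Right, each point is 1 Zfp row placed by its share of cells and grouped by the protein class found in its coding sequence, and bars are medians. The KRAB rows have a median of 20% and reach 80%, and the 3 CCCH rows have a median of 98%.

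The 7 Zfp rows in nearly all cells were led by Zfp36 and Zfp706, the 2 rows expressed in all 50 cells (exact 95% interval of the share 92.9% to 100%). Zfp36, which codes for the mRNA decay factor tristetraprolin, had a lowest TPM of 14.7, a median of 152 and a highest of 1160. Its values spread over an SD of 1.45 on the log2(TPM + 1) scale. Zfp706, which codes for a protein of only 76 residues with 1 finger, ran from 38.5 through a median of 135 to 374. Its SD was 0.71 on the same scale. Both genes were thus read in every cell at a like median, and the range of Zfp36 was the wider.

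Zfp207, whose product BuGZ binds microtubules and the spindle checkpoint protein Bub3, was expressed in 49 cells with a median TPM of 157 and a highest of 501. Zfp36l1, another mRNA decay factor, was also expressed in 49 cells, with a lowest of 0.349, a median of 153 and a highest of 852. Zfp330, a nucleolar protein gene, had the highest median of all Zfp rows at 167 in 47 cells above TPM 1. These 5 genes lay close together at the top. The other 2 rows in nearly all cells were lower, Zfp414 with a median of 77.8 in 46 cells and Zfp422 with 64.1 in 45 cells. Just inside the limit of 90% stood Zfp422 and just outside it Zfp362 at 88% of cells, and Zfp106 and Zfp326 followed at 86%.

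A caution applies to 4 of these 7 genes. At least 5% of the 50-base windows of the coding transcript of Zfp414 (25%), Zfp330 (19.1%), Zfp422 (8.38%) and Zfp706 (7.83%) also occur in transcripts of other annotated genes, so reads could be split between them. The partner of Zfp422 was the pseudogene Zfp422-ps. For Zfp36, Zfp36l1 and Zfp207 the figure was 2.23%, 3.26% and 0%.

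The promoters of genes read in nearly all cells and in few did not separate by their CpG content. Of the 304 rows, 248 had an entry in RefSeq's promoter windows (GRCm38.p6, 250 bases before to 50 bases after the most upstream start). The median was 16 CpG for 6 rows in nearly all cells, 15 for 197 rows between and 15 for 45 rows in few cells, while over 27025 RefSeq genes it was 7. Share of cells and CpG count had a Spearman rho of 0.21 over 248 genes, 0.10 within 146 KRAB rows and 0.06 within 91 other C2H2 rows. The genes share base composition and cluster neighbours, so they are not independent points. The most and the least CpG-rich windows on either side are shown to make this overlap visible, for rows in nearly all cells and for rows in few cells whose highest value passed 50 TPM. Each line gives the 250 bases before the RefSeq start with the CpG dinucleotides in capitals. In GENCODE the genes Zfp422 and Zfp3 begin further upstream, so their windows lie wholly or mostly inside the annotated gene.
Zfp422 (45 cells, 29 CpG, chr6:116628702-116628951, minus strand): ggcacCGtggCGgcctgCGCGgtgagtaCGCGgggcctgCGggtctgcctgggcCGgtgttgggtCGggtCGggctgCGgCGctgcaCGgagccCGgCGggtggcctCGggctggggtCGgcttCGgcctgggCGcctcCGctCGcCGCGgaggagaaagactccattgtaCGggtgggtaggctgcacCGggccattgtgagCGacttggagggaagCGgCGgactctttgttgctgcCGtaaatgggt
Zfp414 (46 cells, 2 CpG, chr17:33628842-33629091, plus strand): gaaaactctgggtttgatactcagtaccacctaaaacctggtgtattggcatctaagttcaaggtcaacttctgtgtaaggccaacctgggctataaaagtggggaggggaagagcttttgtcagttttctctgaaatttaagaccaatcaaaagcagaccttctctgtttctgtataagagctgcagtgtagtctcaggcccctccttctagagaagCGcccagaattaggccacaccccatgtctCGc
Zfp3 (4 cells, 27 CpG, chr11:70764197-70764446, plus strand): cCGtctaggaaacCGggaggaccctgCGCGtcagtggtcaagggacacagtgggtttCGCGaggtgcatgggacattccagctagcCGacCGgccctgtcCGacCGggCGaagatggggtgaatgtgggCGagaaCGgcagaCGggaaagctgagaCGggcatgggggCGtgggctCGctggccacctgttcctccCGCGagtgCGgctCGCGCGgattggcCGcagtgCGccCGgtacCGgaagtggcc
Zfp239 (4 cells, 2 CpG, chr6:117861774-117862023, plus strand): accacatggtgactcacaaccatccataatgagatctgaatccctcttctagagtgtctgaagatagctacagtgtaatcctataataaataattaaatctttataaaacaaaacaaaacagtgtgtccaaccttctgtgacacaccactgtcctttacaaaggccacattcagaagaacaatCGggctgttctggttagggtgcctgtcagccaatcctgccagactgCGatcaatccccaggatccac
Zfp422 and Zfp3 had nearly as many CpG as each other, yet one was expressed in 45 cells and the other in 4. At the other end, Zfp414 and Zfp239 had 2 CpG each in the bases shown, and were expressed in 46 and 4 cells. In the longer windows behind the medians and rho above, Zfp414 had 8 CpG and Zfp239 had 4. Counts in the bases shown are over a shorter stretch and cannot be set beside those medians.

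Below the rows in nearly all cells, the named rows with the highest medians were of the C2H2 class or without a recognised finger. Zfp637 had a median TPM of 70.2 in 34 cells and a highest of 717. Zfp277 had a median of 49.5 in 37 cells. Zfp259, now called Zpr1, which binds translation elongation factor eEF1A, had a median of 45.9 in 41 cells. Zfp410, a factor known to act on the chromatin remodeller gene Chd4, had a median of 44.9 in 41 cells and 952 in its highest cell, against 288 in the next. Zfp711 on the X chromosome had a median of 39.5 in 39 cells. Chd4 itself was expressed in 48 cells with a median of 18.3.

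**Figure D2:**
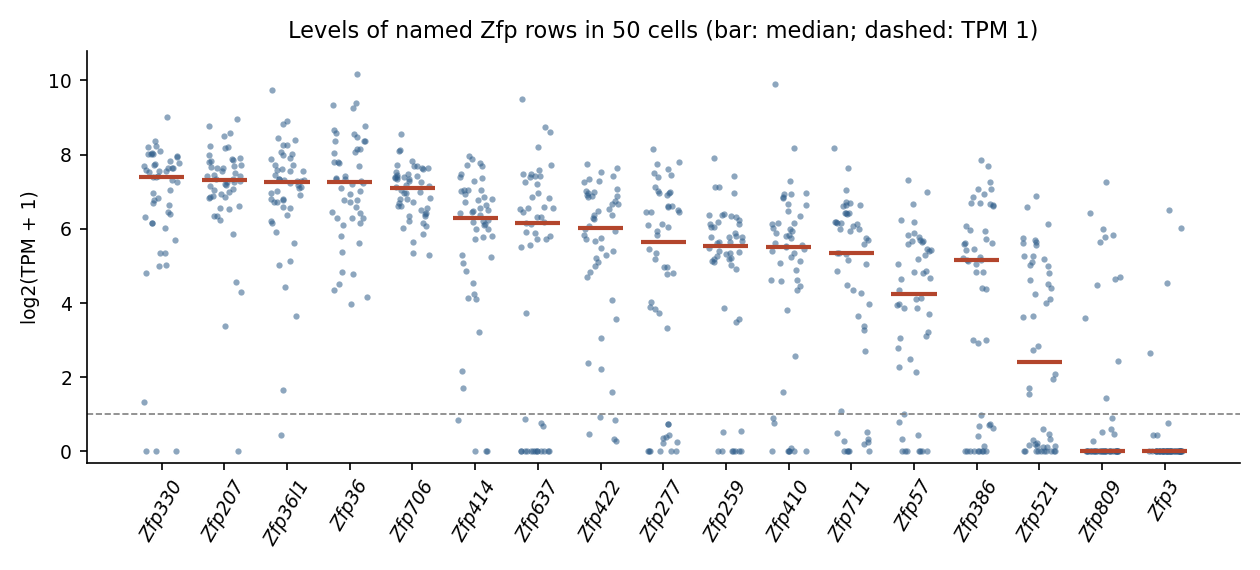
Values of 17 Zfp rows on the log2(TPM + 1) scale (vertical axis), 1 point per cell for 50 cells, with the median as a bar and TPM 1 as a dashed line. The first 12 are the rows of highest median and the last 5 (Zfp57, Zfp386, Zfp521, Zfp809 and Zfp3) were added after their values were seen and are expressed in 40, 34, 29, 12 and 4 cells. Zfp36 and Zfp706 have no cell at 0, while Zfp637 has 13 cells at 0, 3 more at or below TPM 1 and 34 above it.

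The rows of largest SD among those expressed in 20% to 80% of cells follow. Choice by SD among such rows favours cells at 0 beside high values, so that pattern is in part given by the choice. Zfp637 had the largest SD (3.26 on the log2 scale), with 13 cells at 0 and 16 cells above 100 TPM. Zfp771 came next (2.95), with 31 cells above TPM 1 and a median of 60.8 TPM within them. The others were Zfp277, Zfp511, Zfp948, Zfp386, Zfp672 and Zfp62, whose SDs ran down to 2.74. Zfp948 and Zfp386 were the only KRAB rows of these 8, with a median of 36.5 and 34.5 TPM and highest values of 303 and 230.

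The protein classes differed in their share of cells. Translating the longest coding transcript gave a protein for 301 rows. A KRAB domain was found in 169 of them, and 118 others held C2H2 fingers without a KRAB or SCAN domain being found. Domains of other kinds were not searched for. The KRAB rows were expressed in a median of 20% of cells and the other C2H2 rows in 46%. No KRAB row reached 90% of cells, and 34 of the 169 (20.1%) were at or below 10%. Of the 118 other C2H2 rows, 4 (3.39%) reached 90% and 15 (12.7%) were at or below 10%. The KRAB rows in most cells were Zfp57 and Zfp69 with 40 cells each, followed by Zfp871 with 39 and Zfp948 with 37. Once expressed, the classes lay closer together: the median TPM of pairs above 1 was 18.2 for KRAB rows and 21 for other C2H2 rows. This comparison of levels covers only pairs above TPM 1. Over all cells, a median above TPM 1 was found in 18 KRAB rows (10.7%) and 52 other C2H2 rows (44.1%). Share of cells and the median level in cells above TPM 1 had a rho of 0.26 over 298 Zfp rows. A difference in level was therefore not separated from a difference in share.

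The smaller classes lay on both sides. The 3 CCCH rows had a median share of 98%, the 6 rows with a SCAN domain and no KRAB had 49%, and 5 rows with neither a KRAB or SCAN domain nor a recognised finger (Zfp259, Zfp330, Zfp503, Zfp703 and Zfp839) had 62%. The 3 rows annotated as pseudogenes (Zfp389, Zfp783 and Zfp939) had 4%.

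The number of fingers fell as the share of cells rose. Rows with 1 to 3 fingers had a median share of 60%, 4 to 6 fingers 36%, 7 to 9 fingers 30%, 10 to 14 fingers 26% and 15 or more 20%. The rho over 301 rows was -0.29. Within the 169 KRAB rows it was -0.07, and within the 118 other C2H2 rows -0.21, both nearer to 0 than over the classes together. KRAB rows had a median of 12 fingers and other C2H2 rows 7. Share of cells had a rho of -0.00453 with protein length over the same 301 rows.

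**Figure D3:**
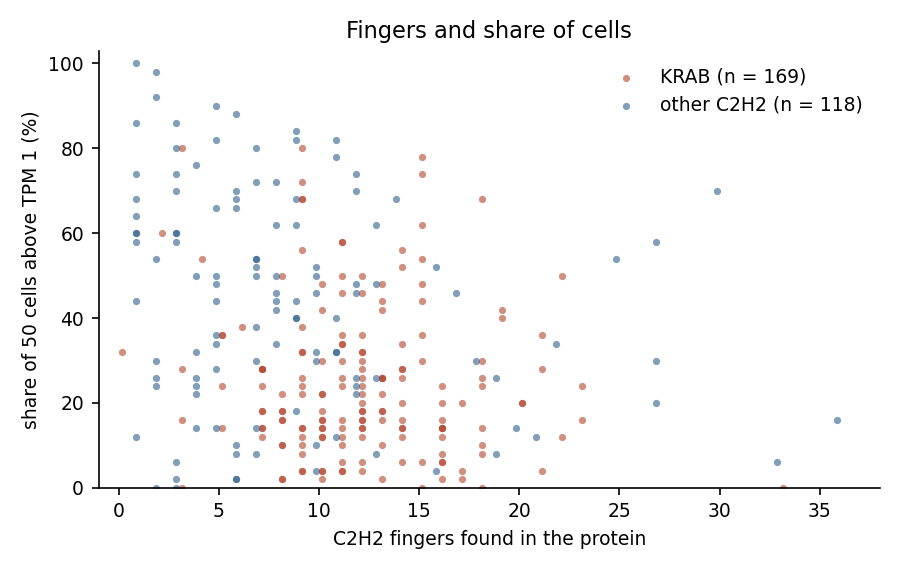
Each point is 1 gene, with the number of C2H2 fingers found in its protein on the horizontal axis and its share of the 50 cells above TPM 1 on the vertical axis, for 169 KRAB rows and 118 other C2H2 rows, shifted slightly sideways. All points above 80% are other C2H2 rows, and KRAB rows spread from 0% to 80% at like finger counts.

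Many of these genes stand in arrays, and there the low shares were unevenly spread. Chromosome 7 held 72 rows, chromosome 17 held 41 and chromosome 13 held 29. With gaps of at most 500 kb and at least 5 rows, 13 arrays held 124 rows. The array on chromosome 17 from 21008903 to 23599487 (mm10) held 20 rows, all KRAB, with a median share of 26% and a range of 4% to 74%. The array on chromosome 13 from 67038596 to 67827002 held 18 rows, all KRAB, with a median of 12% and a range of 0% to 36%. KRAB rows in arrays and outside them both had a median of 20%, over 96 and 73 rows. Some rows of an array share transcript sequence, as given next, so array rows may not be independent.

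Shared sequence touched the KRAB rows most. In 56 of 169 KRAB rows (33.1%) at least 5% of the 50-base windows occurred in another gene's transcripts, and their median share was 17%, against 22% for the other 113. In rows without KRAB it was 13 of 132 (9.85%). Zfp97 and Zfp960 on chromosome 17, chosen after their values were seen, show this within the Zfp rows. Their proteins of 546 residues are 96.3% identical, Zfp960 shares 81.4% of its windows with Zfp97, and both were above TPM 1 in the same 13 cells. In those cells Zfp97 ran from 4.35 through 15.3 to 51.5 TPM and Zfp960 from 1.98 through 18.5 to 58.7. Reads of the 2 genes cannot be told apart over most of their length, so their joint presence is uncertain as a result on either.

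Detection together was weak by the median, with Zfp97 and Zfp960 counted in. Over the 180 rows expressed in 20% to 80% of cells, the 16110 pairs had a median phi of 0.0883, where phi is the correlation of 2 yes-or-no patterns over the 50 cells. It was 0.0497 for 65 pairs of neighbours within 100 kb and 0.0891 for 14494 pairs on different chromosomes. Neighbours were therefore no more alike by the median than genes on different chromosomes. The pairs share the cells and the number of genes per cell.

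The lists by role follow, with the decay factors first. In the mRNA decay list, Zfp36 and Zfp36l1 were joined by Zfp36l2, which was expressed in 38 cells at a much lower median of 5.48 TPM and a highest of 62.6. The CCR4-NOT and decay partners, which are no Zfp genes, had 13 rows with a median share of 80%. Zfp36 is known as an immediate-early gene. Over the 50 cells its rho was 0.47 with Junb, 0.41 with Jun, 0.35 with Egr1, 0.29 with Fos, 0.27 with Ier2, 0.26 with Fosb, 0.23 with Dusp1, 0.18 with Atf3 and -0.22 with Myc. Against 9103 rows expressed in at least 20% of cells its median rho was 0.02 and its 95th percentile 0.27. For Zfp36l1 the rho was 0.39 with Junb and -0.09 with Egr1. The rho between Zfp36 and Zfp36l1 was -0.01. The cells share 1 preparation, and these values are descriptions over 50 cells.

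The window before the start of Zfp36 is shown because the letters of the EGR family's motif stand in it, in capitals (GCGGGGGCG, searched on both strands, holding CpG of its own).
Zfp36 (50 cells, chr7:28379229-28379478, minus strand): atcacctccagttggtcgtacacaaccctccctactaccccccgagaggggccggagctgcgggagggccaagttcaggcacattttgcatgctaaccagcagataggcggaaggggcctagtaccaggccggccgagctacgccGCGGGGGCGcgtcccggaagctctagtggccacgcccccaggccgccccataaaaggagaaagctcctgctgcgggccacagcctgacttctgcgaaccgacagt
The motif was found in 7 of 248 Zfp windows (2.82%) and in 785 of 27025 RefSeq windows (2.905%), counted over all 300 bases. Zfp266, Zfp385a, Zfp592, Zfp618, Zfp746 and Zfp771 were the other Zfp genes with it. A match is a description of letters and says nothing of binding in these cells. The window of Zfp36 precedes a RefSeq start and lies inside the GENCODE gene, which begins further upstream.

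Among KRAB repressors of imprinted genes and retroelements, 6 of 7 listed genes had a row, with a median share of 47%. Zfp57 and Zfp445, which keep methylation at imprinted loci, were expressed in 40 and 25 cells, with medians of 18.1 and 0.852 TPM and highest values of 158 and 196. Zfp568, a repressor of a placental Igf2 promoter, was expressed in 23 cells, up to 76.5 TPM. Zfp809, which silences murine leukaemia virus DNA through its primer binding site, was expressed in 12 cells with a median of 36.8 TPM within them. Zfp932 was expressed in 24 cells and shares 52.3% of its windows with Gm15446. Zfp708 was expressed in 3 cells, and all of its windows occur in Gm28557, so its value is uncertain. The listed cofactors of KRAB proteins were more widely read, with a median share of 86% over 15 rows, against 52% over all rows. Their shares ran from 24% to 100%, with Chd3 (12 cells) and Uhrf1 (25 cells) the lowest. Trim28 was expressed in 47 cells with a median of 115 TPM, Setdb1, the H3K9 methyltransferase of that complex, in 28 cells with 5.24, and Cbx3 in 50 cells with 156.

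Factors of blood and vessels were mixed. Of 8 listed genes, 7 had a row, with a median share of 48%. Zfp148, a GC-box binding factor, was expressed in 38 cells with a median of 8.82 TPM and Zfp580, described in endothelial cells, in 35 cells with 13.8. Zfp521, a partner of Ebf factors in blood progenitors, was expressed in 29 cells (58%, exact 95% interval 43.2% to 71.8%) with a median of 4.46 TPM and a highest of 118. Its relative Zfp423 was expressed in 10 cells, up to 29.9 TPM. Zfp335 was expressed in 24 cells and Zfp318 in 15. Zfp385a, known from megakaryocytes, was expressed in 3 cells and never above 3.39 TPM.

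Of 5 factors of the pluripotent state 4 had a row, all but Zfp42, with a median share of 26% and a range of 2% to 60%. Zfp281 was expressed in 30 cells with a median of 3.43 TPM and a highest of 125, and Zfp322a in 23 cells with a median of 0.414 and a highest of 55.9. Zfp462 was expressed in 3 cells up to 17.2 TPM, and Zfp296 in 1 cell at 7.68.

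Genes that act on RNA and ribosomes were the most widely read of the C2H2 lists, with a median share of 72% over 6 rows. Zfp106, an RNA-binding protein gene, and Zfp326, a component of a complex that couples splicing to transcript elongation, were expressed in 43 cells each, with medians of 15.4 and 11.3 TPM. Zfp622, which acts in the assembly of the large ribosomal subunit, was expressed in 40 cells with a median of 38.97 TPM and a highest of 324. Zfp593, also of that assembly, was expressed in 32 cells with 8.61. Zfp598, a ubiquitin ligase of collided ribosomes, was expressed in 30 cells with 3.03. Zfp346, which binds double-stranded RNA, was expressed in 11 cells. In the mitosis and genome list Zfp207 stood apart from Zfp830 (29 cells) and Zfp828, now Champ1, a chromosome alignment gene (12 cells).

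All 10 chromatin and promoter factors had a row, with a median share of 45% and a range of 12% to 72%. Zfp644 led with 36 cells and a median of 7.36 TPM. Zfp703 followed with 31 cells at 3.43. Zfp143, which binds promoters and loop anchors, was expressed in 26 cells with a median of 10.1 TPM, and Zfp516 also in 26 at 1.18. All 4 medians are over the 50 cells. Zfp592 was expressed in 25 cells, Zfp687 in 20, Zfp217 in 17 and Zfp827 in 9. Zfp503 and Zfp609 were expressed in 6 cells each.

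The highest TPM of the 46 rows expressed in 1 to 5 cells had a median of 25.4, with quartiles of 12.7 and 45.4, and ran from 1.56 to 137. Among these rows, 10 were expressed in 1 cell, and 1 passed 100 TPM. The 8 of highest maximum are named here. The first was Zfp389, annotated as a pseudogene, at 137 TPM in 1 cell and 3.45 in the next. The KRAB gene Zfp934 reached 92.4 and 86.9 TPM in its highest 2 cells of 5, but 44.1% of its 50-base windows also lie in other genes, most of them in Zfp808, so that the level may belong in part to these. Zfp3, expressed in 4 cells, reached 90.5 TPM in 1 of them and 64.4 in the next. Zfp239, also in 4, reached 81.4 in 1 and 43.5 in the next. Zfp109, Zfp951, Zfp169 and Zfp184 reached between 58.3 and 65.5 TPM. Just inside the limit for few cells 8 rows stood at 10%, and just outside it 13 stood at 12%.

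The number of Zfp rows expressed in a cell ran from 22 to 194, with a median of 100.5. The same cells expressed between 2378 and 8421 other genes, with a median of 6121. The cell titled 4-6 had the fewest of both and the cell titled 3-8 the most of both. The next lowest cell had 47 Zfp rows, so cell 4-6 lay well below the rest. Over the 50 cells the number of Zfp rows followed the other genes with a Spearman rho of 0.93 and a Pearson r of 0.95. Without cells 3-8 and 4-6 the values were 0.92 and 0.94. The fitted line rose by 27.6 Zfp rows for each 1000 other genes, and cells lay around it with an SD of 10.5 rows. Both end cells lay above the line, cell 4-6 by 20.7 rows and cell 3-8 by 25.9, so the line missed at both ends. Depth and capture are shared by both counts of a cell, and their part was not tested.

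Titles of the cells carry a first number from 1 to 4 whose meaning is not given. Within the 4 numbers rho lay between 0.75 and 0.98. The median number of Zfp rows per cell was 106, 101, 99 and 104.5 in the 11, 14, 13 and 12 cells. Among Zfp rows expressed in 20% to 80% of cells, the share differed by a median of 25.97 points between the highest and lowest number, against 26.3 over all such rows. In 5 Zfp rows (2.78%, against 3.123% of all such rows) it differed by 50 points or more. These were Zfp53, Zfp143, Zfp637, Zfp672 and Zfp821. Zfp143 was expressed in 9.09% of the cells of number 1 and 71.4% of those of number 2, and Zfp672 in 18.2% and 78.6%.

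**Figure D4:**
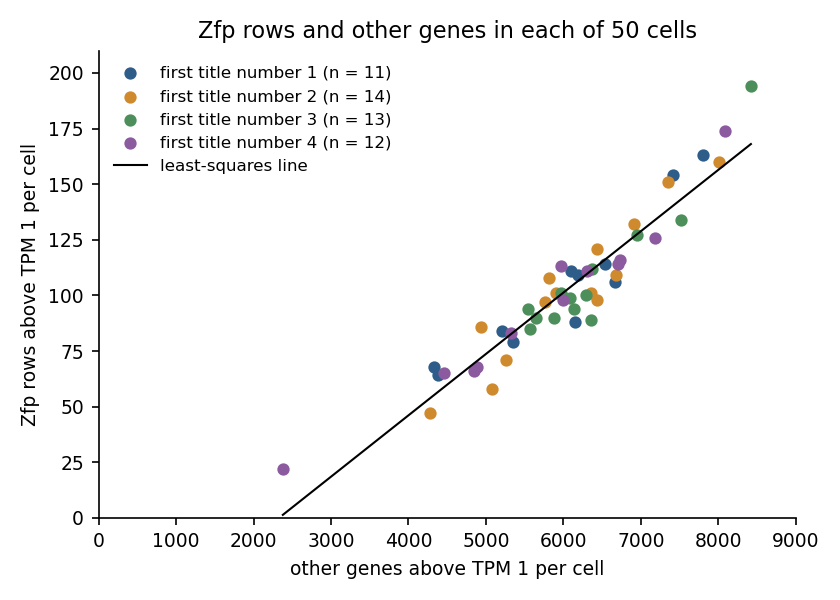
Each point is 1 of 50 cells, with the other genes above TPM 1 on the horizontal axis and the Zfp rows above TPM 1 on the vertical axis, coloured by the first number of the title. The least-squares line rises by 27.6 Zfp rows for each 1000 other genes, and the cells of all 4 numbers lie around it. The lowest cell (22 Zfp rows) and the highest (194) both lie above it, by 20.7 and 25.9 rows.

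Zfp rows took a larger part of the genes of a cell as more genes were measured. Their percent of the expressed genes ran from 0.917% in cell 4-6 to 2.25% in cell 3-8, with a median of 1.63%, and the rho with other genes per cell was 0.73. In the 13 cells with the fewest other genes a median of 68 Zfp rows was expressed, and in the 12 with the most it was 142.5. As a percent of the rows this was 22.4% and 46.9%, against 42.2% and 63.8% for the other rows. In the first 13 cells together 237 of the Zfp rows were expressed in at least 1 cell, and in the last 12 it was 284. KRAB rows rose from a median of 27 to 63.5 and rows without KRAB from 41 to 81.5.

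The same rise was found in other genes of like share. For rows expressed in 20% to under 40% of all cells, 85 Zfp rows went from 15.8% of pairs above TPM 1 in the 13 cells with fewest genes to 45% in the 12 with most, and 1732 other rows from 16.0% to 45.3%. For 40% to under 60% the values were 28.3% and 70.1% over 54 Zfp rows and 30.5% and 69.8% over 1881 others. For 60% to under 80% they were 48.2% and 86.3% over 37 Zfp rows and 48.5% and 88.1% over 1898 others. At matched share of cells the Zfp rows and the rest lay within 5 points of each other in each of the 4 sets of cells. The share used for matching was taken over the same cells that were then split into sets. A like rise was therefore in large part set by the matching, and it does not decide whether Zfp rows gain cells as others do.

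**Figure D5:**
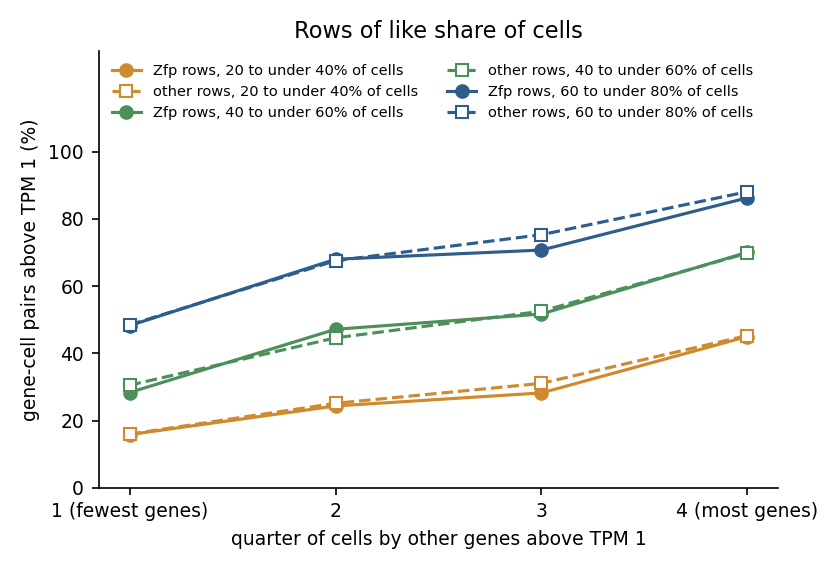
The percent of gene-cell pairs above TPM 1 (vertical axis) in 4 sets of 12 or 13 cells ordered by the number of other genes (horizontal axis), for Zfp rows (filled points, solid lines) and other rows (open squares, dashed lines) of 3 ranges of share over all cells. The lines of each range run together, from 15.8% and 16.0% to 45% and 45.3% in the lowest range.

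The levels within expressing cells were compared with other genes by steps of share. In rows expressed in under 20% of cells the median TPM of pairs above 1 was 14.4 for 109 Zfp rows and 14.1 for 2666 others. From 20% to under 40% it was 15.4 and 17.8, and from 40% to under 60% 19.7 and 21.7. From 60% to under 80% it was 20.3 for the Zfp rows and 32.4 for the others. From 80% to under 90% it was 33.1 over 12 Zfp rows and 50.2 over 1145 others, and at 90% or more 128 over 7 Zfp rows and 154 over 2253 others. From a share of 20% upward the Zfp median was the lower one in each step, and shares within a step were not matched further.

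The summed level of the Zfp rows was only weakly related to the number of other genes per cell. Its relation to the number of Zfp rows was not calculated. All Zfp rows together carried between 0.228% and 0.619% of the TPM of the table, with a median of 0.425%, and the rho of this percent with other genes per cell was 0.18. Within the first numbers that rho ran from -0.31 to 0.60. The median TPM of the expressed Zfp rows of a cell fell with the number of other genes (rho -0.61), and over the cells it ranged from 13.3 to 54.3. TPM is a share of a common total, so the level of a gene and the number of genes read in a cell are tied by the unit. The KRAB rows held a median of 30.5% of the Zfp TPM, and the 10 highest Zfp rows of a cell 41.7%, up to 93.2% in cell 4-6. The highest Zfp row of a cell was Zfp36 in 12 cells, Zfp36l1 in 11, Zfp207 in 8, Zfp330 in 6, Zfp637 in 4 and Zfp706 in 3. In the last 6 cells it was Zfp277, Zfp358, Zfp410, Zfp414, Zfp672 or Zfp948, in 1 cell each.

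Other gene families named by symbol had an equal or a higher median share. The 32 Zbtb rows, which also code for C2H2 proteins and carry a BTB domain, had a median share of 28% with 0 rows at or above 90% of cells. The 13 Klf rows, C2H2 factors prominent in endothelium, had a median share of 66% and 3 rows at or above 90%. The 57 Rab rows, small GTPases of membrane traffic, had a median of 64% and 16 such rows. The rho of the number per cell with the genes outside the family was 0.87 for Zbtb, 0.47 for Klf and 0.86 for Rab, over family sizes that differ. The Zbtb rows were thus the nearest to the Zfp rows in share of cells.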

How the data were processed

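Expression was measured in 50 single iHECs whose cDNA was amplified with a whole-transcriptome kit without named unique molecular identifiers. Per the labels and methods, the authors aligned reads to mm10 with HISAT2 2.1.0 and estimated expression with StringTie 1.3.4, and SAMtools 0.1.19 and bcl2fastq are also named. The deposited values, 1 for each gene in each cell, are the authors' TPM estimates, and the rule by which rows were kept is not given in the sources used here. TPM keeps no depth, so none is given. The columns summed to between 942975 and 970894 TPM. A gene with a value of 0 is described as listed at 0.

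Rows whose symbol is Zfp and a digit were taken, and the members and lists were chosen with earlier results of these data known. Shares of cells above TPM 1 carry exact Clopper-Pearson 95% intervals, and a count of 0 the limit from 3 counts of 50 (6%). Both cover counting error over cells only. The named genes were the 12 rows of highest median, every row in 50 of 50 cells, the 8 of largest SD of log2(TPM + 1) among rows in 20% to 80% of cells, the 8 of highest maximum among rows in 1 to 5 cells, and the list members. Others are named as chosen after their values were seen, as illustrations or as rows beside a limit.

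Of the 304 symbols, 298 were found in GENCODE M21 (GRCm38, the assembly that mm10 names) and 6 through a RefSeq synonym. C2H2 and CCCH fingers were found by their cysteine and histidine spacing. KRAB and SCAN domains were found with pyhmmer 0.12.3 profiles built from 46 and 1 seed windows of these proteins (E-value at most 0.001), so distant copies may be missed. Calculations used Python 3.11.15, pandas 2.3.3 and scipy 1.17.1 and were tested on simulated data. No paired or replicated design exists, and columns of no sample numbered 0.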

Additional observations from a re-analysis of the deposited data

How the results depend on the processing

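No paired analysis was possible because the 50 cells form 1 group and no test was run. Of 141 recomputed counts, medians and correlations, 128 stayed within the spread set for them. It was 1.5 times for counts and the exact 95% interval over cells for shares. For other values it was the SD over cells, or over the 4 first title numbers for rho. The interval is that of a single share over the cells and does not measure the spread of a median over rows. The SD of Zfp rows per cell was 32.5, a wide limit, so staying within these spreads does not show robustness. With expression called at TPM above 0, the Zfp rows in at least 90% of cells numbered 13 and the CCCH rows had a median share of 100%, which they also had without the cells of first number 3. At TPM above 10 the median share over the Zfp rows was 16%, that of the other C2H2 rows 26% and that of the rows with no finger found 34% (46% at TPM above 5), and 106 rows were at or below 10% of cells. Keeping only rows above TPM 1 in at least 10% of cells gave 14% for the pseudogene rows. An alternative chosen after seeing the data kept only rows with under 5% of windows in other genes. It left 3 rows in at least 90% of cells and 33 in at most 10%, a median share of 46% for the rows with no finger found, and 0.315% of the TPM, since fewer rows were counted. Counts over all rows were not made under these settings, so the moves of the Zfp counts cannot be set against the table. The KRAB median lay between 12% and 26% and the rho of Zfp rows with other genes between 0.861 and 0.939 under every alternative tried. Among the 62 named genes, the share of cells left its interval in 11 genes for a level of 0, in 11 for a level of 5 and in 26 for a level of 10, and in at most 2 when the cells of a first number were left out. With a pseudocount of 0.1 the mean log2 level of 22 moved by more than its SD. Unknown depth limits how far a value of 0 can be read.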
